A study of Mus musculus with 10 samples.

Results

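Leukaemia inhibitory factor (LIF) is the cytokine that keeps mouse embryonic stem cells self-renewing, and 8 genes of its receptor and Stat3 pathway were followed here: Lif, Lifr, Il6st, Jak1, Stat3, Socs3, Pim1 and Pim3. They were chosen by symbol among 52636 gene identifiers, and all 8 were found, were expressed above the filter on low counts and were among the 16005 genes tested. RNA was sequenced from WT and CBE-KO cells of the mouse embryonic stem cell line E14, with 2 biological replicate libraries each. CBE-KO cells lack a site near the HoxA genes that binds CTCF, a protein that shapes chromatin loops. Both groups had been maintained on gelatin in 15% serum with LIF at 10 ng/mL, the MEK inhibitor PD0325901 at 1 µM and the GSK3 inhibitor CHIR99021 at 3 µM. Both were then replated for 24 h with retinoic acid, at a labelled 2 µM, in medium from which LIF and the inhibitors had been withdrawn, so no group with added LIF was among these libraries. The labels do not say whether CBE-KO was 1 clone. The comparison asked how the pathway's genes stood in CBE-KO relative to WT under retinoic acid.

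LIF binds its receptor Lifr, which pairs with the signal-transducing chain Il6st (gp130) that most cytokines of the interleukin-6 family share. Jak kinases bound to these chains phosphorylate Stat3, which enters the nucleus and activates genes that sustain the undifferentiated state. Among its direct targets are the feedback inhibitor Socs3 and the kinases Pim1 and Pim3.

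Sequences just upstream of 4 genes are shown because these genes carry the largest rise (Il6st), the rise of the transcription factor itself (Stat3) and both falls (Lif and Pim1) described below. Each lies upstream of the outermost RefSeq end of its gene in GRCm38.p6, the assembly that the submitters' processing notes name as mm10, and capitals mark GC boxes, GGGCGG or its reverse complement. The stretches are chr13:112463870-112464069 on the plus strand, chr11:100939595-100939790 on the minus strand, chr11:4257368-4257567 on the plus strand and chr17:29490585-29490784 on the plus strand.
Il6st: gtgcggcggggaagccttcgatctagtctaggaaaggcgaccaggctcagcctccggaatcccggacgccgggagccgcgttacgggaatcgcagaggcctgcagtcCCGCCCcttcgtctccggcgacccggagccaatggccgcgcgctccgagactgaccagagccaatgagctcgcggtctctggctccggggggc
Stat3: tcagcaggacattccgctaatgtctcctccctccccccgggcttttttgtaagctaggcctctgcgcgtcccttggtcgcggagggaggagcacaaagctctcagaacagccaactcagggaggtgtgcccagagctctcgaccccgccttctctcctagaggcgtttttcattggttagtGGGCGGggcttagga
Lif: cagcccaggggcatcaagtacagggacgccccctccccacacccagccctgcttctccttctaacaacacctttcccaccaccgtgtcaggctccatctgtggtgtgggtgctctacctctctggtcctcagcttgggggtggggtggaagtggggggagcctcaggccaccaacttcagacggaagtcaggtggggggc
Pim1: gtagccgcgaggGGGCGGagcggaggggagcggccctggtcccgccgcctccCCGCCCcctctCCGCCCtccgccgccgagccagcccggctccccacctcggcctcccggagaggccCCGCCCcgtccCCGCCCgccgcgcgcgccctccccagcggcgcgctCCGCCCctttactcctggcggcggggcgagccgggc
The Pim1 stretch held 6 GC boxes and 84.5% G and C, the Il6st and Stat3 stretches 1 GC box each, and the Lif stretch none. In windows from 250 bases before to 50 after a RefSeq start, GGGCGG on either strand was present for 7 of the 8 genes, all but Lif, and for 29 of 41 other pathway genes with a window. It was in 35.7% of all 32851 windows and in a window of 38.2% of the 27025 genes that have one. The median share of G and C over all windows was 52.7%. It was 49% and 53.3% in the second windows of Pim1 and Lifr, and 60.7% to 81.3% in the other windows of the 8 genes. The part of this base composition in the GGGCGG matches was not tested. The sequence TATAAA on either strand was in no window of the 8 genes, in 13.6% of all windows and for 15.7% of genes. The windows of Lifr and Socs3 lie inside the RefSeq spans of these genes. They do not reach the outermost ends, so what lies upstream of those ends was not read for Lifr and Socs3.

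The general Stat binding sequence, TTCNNNGAA, reads the same on both strands. It was found in the windows of 1 of the 8 genes, Socs3, in 8.30% of all windows and for 9.55% of genes. The match, TTCTTAGAA, began 154 bases before the RefSeq start used, and is shown in capitals with its surroundings at chr11:117969501-117969530 on the minus strand. Unlike the stretches above, this one lies inside the RefSeq span of its gene, chr11:117966079-117970336.
Socs3: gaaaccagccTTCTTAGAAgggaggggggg
The stricter form TTCCNGGAA was in no window of the 8 genes and in 1.15% of all windows. Of the 41 other pathway genes, 2 held TTCNNNGAA, the feedback inhibitor Cish and the adaptor Gab1. These matches describe the letters of short windows and were not measured as binding.

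The libraries held 14108038 to 15632960 counts, so 3 counts corresponded to 0.192 to 0.213 CPM, the count scaled to library size. Replicates differed by more than sampling noise, with a chi-square per degree of freedom of 3.40 in WT and 2.70 in CBE-KO against 20.3 to 23.2 between groups. The 8 pluripotency markers, Pou5f1 and Nanog among them, summed to 7782 to 8077 CPM in WT and 7491 to 7634 CPM in CBE-KO, so both groups carried the labelled cell type's transcripts. By the test described below 5 of these 8 were lower in CBE-KO, Pou5f1 (-0.33), Utf1 (-1.67) and Tdgf1 (-1.20) among them, and 2 were higher, Nanog (0.15) and Dppa5a (0.28), with a median log2 fold change of -0.34. Dppa5a alone gave 3433 to 3547 CPM of the sum in WT and 4197 to 4297 CPM in CBE-KO. Of 8 fibroblast markers, 4 (Dcn, Lum, Postn and Fap) were at 0 counts in every library, 1 of 2 tested (Col1a1) was higher by the same test, and the list summed to 11.3 to 12.9 CPM in WT and 14.8 to 17.6 CPM in CBE-KO. Extraembryonic endoderm markers summed to 154 to 166 CPM in WT and 198 to 201 CPM in CBE-KO, with 5 of 8 higher by the same test. Beside the counts of every marker list, 43.1% of all tested genes passed, 21.6% higher and 21.5% lower. Neural progenitor markers summed to 35.9 to 36.4 CPM in WT and 63.5 to 64.5 CPM in CBE-KO, with 4 of 5 tested higher. These 4 were Zfp521 (3.59), Pax6 (1.96), Sox3 (1.44) and Sox1 (0.58), while Nes (-0.31) did not pass, and the median log2 fold change was 1.44. Hes5 and Neurog2 had at most 2 counts in any library. Trophoblast markers summed to 55.5 to 62.5 CPM in WT and 56.2 to 57.5 CPM in CBE-KO, with 1 of 7 tested higher and 1 lower. The part of these shifts in the results below was not tested, and in bulk RNA fewer cells of a type cannot be told apart from less RNA per cell. The Y-linked gene Ddx3y had 6 and 5 counts in the WT libraries and 920 and 822 in CBE-KO, so the cells of the groups also differed in the presence of Y-linked transcripts, and that difference cannot be told apart from the loss of the element.

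After retinoic acid, CBE-KO cells carried more transcripts of the receptor chains, the kinase and the transcription factor and fewer of the ligand. Lifr, Il6st, Jak1 and Stat3 were 1.27-fold to 1.43-fold higher, and Lif was 1.86-fold lower. Of the 3 targets, Pim1 was 1.23-fold lower, while Socs3 and Pim3 did not pass. In all, 6 of the 8 genes passed the quasi-likelihood test of edgeR (Benjamini-Hochberg over all tested genes, threshold 0.05), 4 higher and 2 lower. Over all tested genes 43.1% passed, 21.6% higher and 21.5% lower, and over genes averaging at least 1 CPM 45.1% did. The libraries of the groups did not overlap for 6 of the 8 genes, 4 above WT and 2 below, and for 70.4% of all tested genes, 36.5% above and 33.9% below. The median log2 fold change of the 8 genes was 0.24 against 0.0067 over all genes, and their median absolute log2 fold change was 0.37 against 0.28.

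**Figure D1:**
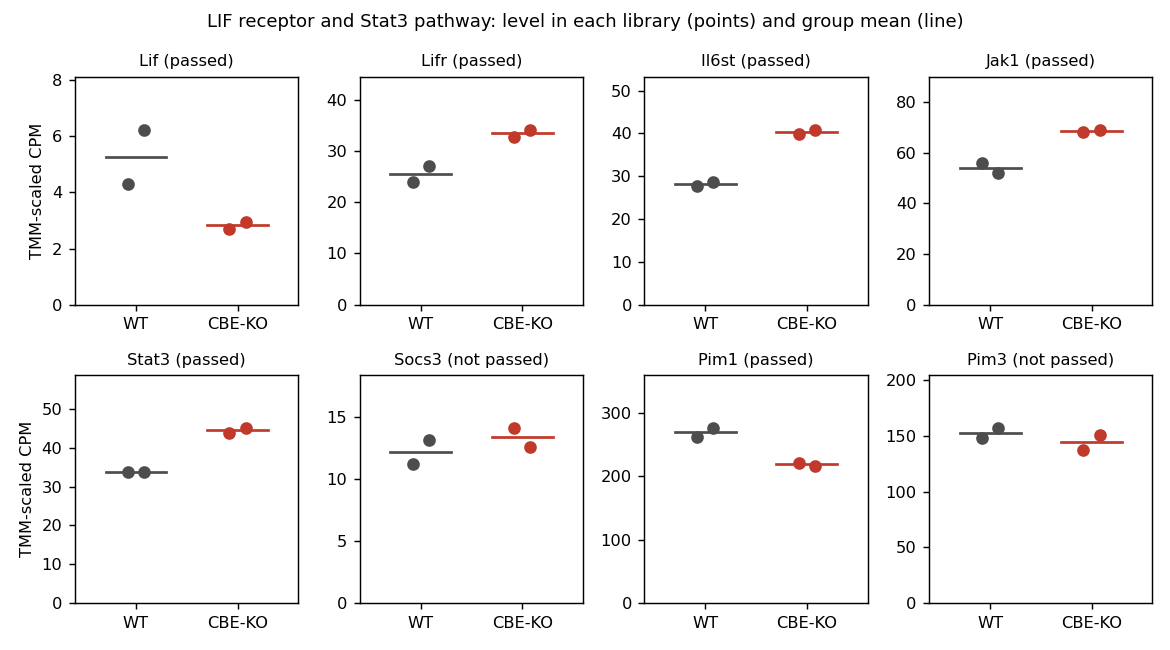
Level of each of the 8 genes in the 4 libraries, in TMM-scaled CPM on linear axes that start at 0. Points are libraries and lines are group means (n = 2 each). The groups are apart for the 6 genes that passed the test and overlap for Socs3 and Pim3.

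The ligand Lif (ENSMUSG00000034394) was the least counted of the 8. It was counted 63 and 86 times in the WT libraries, 4.30 and 6.24 CPM after TMM scaling (trimmed mean of M-values), and 44 and 43 times in CBE-KO, 2.71 and 2.95 CPM. Both CBE-KO libraries lay below both WT libraries, and the WT libraries lay far apart relative to that gap. The mean fell from 5.27 ± 1.37 to 2.83 ± 0.172 CPM (±SD, n = 2 per group), a difference of -0.90 ± 0.25 in log2 units (standard error; adjusted p = 0.00682 by edgeR). Without WT replicate 2 the log2 fold change was -0.61 and did not pass (edgeR adjusted p = 0.0919), so this call rested on that library. A larger absolute log2 fold change was found for 11.8% of all tested genes. DESeq2 gave Lif a log2 fold change of -0.91, which passed only narrowly (DESeq2 adjusted p = 0.0452).

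Both chains of the LIF receptor rose. Lifr (ENSMUSG00000054263), the chain that binds the ligand, had 24.0 and 27.1 CPM in WT and 32.8 and 34.2 CPM in CBE-KO. The lower CBE-KO library was above the higher WT library, and the mean went from 25.5 ± 2.19 to 33.5 ± 1.03 CPM (±SD, n = 2 per group), a difference of 0.39 ± 0.09 in log2 units (standard error; adjusted p = 0.00167 by edgeR). Il6st (ENSMUSG00000021756), the shared signal-transducing chain, had 27.7 and 28.7 CPM in WT and 40.0 and 40.9 CPM in CBE-KO. Its replicates differed by about 1 CPM while the groups stood more than 10 CPM apart. The mean went from 28.2 ± 0.757 to 40.4 ± 0.643 CPM (±SD, n = 2 per group), a difference of 0.52 ± 0.08 in log2 units (standard error; adjusted p = 4.45e-05 by edgeR), the largest rise among the 8 genes. Within a library, where scaling cancels, the ratio of Il6st to Lifr counts was 1.15 and 1.06 in WT and 1.22 and 1.19 in CBE-KO.

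The kinase and the transcription factor downstream also rose. Jak1 (ENSMUSG00000028530), which phosphorylates the receptor chains and Stat3, had 56.2 and 52.0 CPM in WT and 68.4 and 69.2 CPM in CBE-KO. The groups did not overlap, and Jak1 differed by 0.35 ± 0.07 in log2 units (standard error; adjusted p = 0.000342 by edgeR), from a mean of 54.1 ± 2.92 to 68.8 ± 0.584 CPM (±SD, n = 2 per group). The far end of Jak1 overlaps the neighbouring gene Raver2 in RefSeq, which was itself higher by a log2 fold change of 0.81. How strand and shared reads were handled in counting is not given in the sources used here, so reads in that overlap are uncertain. Stat3 (ENSMUSG00000004040) had 33.8 CPM in each WT library and 43.9 and 45.1 CPM in CBE-KO. The WT libraries were closer to each other than for any other of the 8 genes, and the mean went from 33.8 ± 0.0493 to 44.5 ± 0.867 CPM (±SD, n = 2 per group), a difference of 0.40 ± 0.07 in log2 units (standard error; adjusted p = 0.000334 by edgeR). The ratio of Stat3 to Jak1 counts within a library was 0.601 and 0.650 in WT and 0.642 and 0.652 in CBE-KO.

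**Figure D2:**
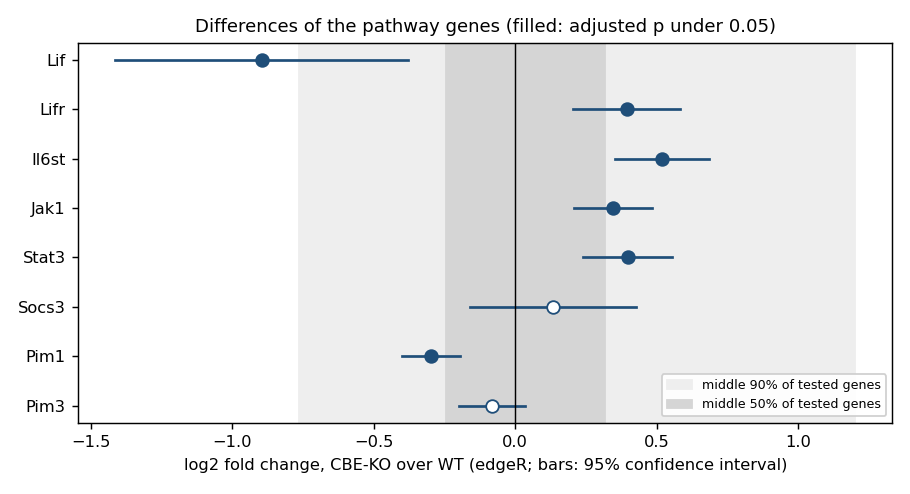
Log2 fold change of CBE-KO over WT for the 8 genes, with 95% confidence intervals derived from edgeR's F statistic. Filled points passed at an adjusted p under 0.05, and grey bands hold the middle 50% (-0.24 to 0.32) and 90% (-0.76 to 1.20) of all tested genes. Lif lies below the 90% band, and the other genes that passed lie between the edges of the 50% and 90% bands.

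Of the 3 direct targets of Stat3 among the 8 genes, 1 passed, and it was lower. Socs3 (ENSMUSG00000053113), whose product binds Il6st and shuts down the kinase, had 11.2 and 13.1 CPM in WT and 14.1 and 12.6 CPM in CBE-KO. The groups overlapped, and the difference of 0.13 ± 0.14 in log2 units (standard error; adjusted p = 0.473 by edgeR) had a 95% confidence interval from -0.16 to 0.43, which includes rises as large as that of Stat3. Pim1 (ENSMUSG00000024014), a serine/threonine kinase that promotes survival and proliferation, had 263 and 277 CPM in WT and 221 and 217 CPM in CBE-KO. Both CBE-KO libraries lay below both WT libraries, and the mean fell from 270 ± 9.82 to 219 ± 2.90 CPM (±SD, n = 2 per group), a difference of -0.30 ± 0.05 in log2 units (standard error; adjusted p = 8.41e-05 by edgeR). The start of Pim1 overlaps a noncoding gene, Gm26885, that had 23 and 11 counts in the WT libraries and 8 and 7 in those of CBE-KO, against 3165 to 3844 counts for Pim1. Pim3 (ENSMUSG00000035828), a kinase of the same family, had 148 and 157 CPM in WT and 138 and 151 CPM in CBE-KO. Its groups overlapped, with a difference of -0.08 ± 0.06 in log2 units (standard error; adjusted p = 0.254 by edgeR; 95% confidence interval -0.20 to 0.03), and its sign turned to 0.022 with library totals alone as the scale. Stat3 and Pim3 also overlap other RefSeq genes, Gm46295 and Gm33049 respectively, which were not found by symbol among the counted identifiers. The ratio of Pim1 to Pim3 counts was 1.77 and 1.76 in WT and 1.61 and 1.44 in CBE-KO. Whether the changes of Pim1 and Pim3 differed was not tested.

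The other ligands of the interleukin-6 family were scarce in both groups. Of 9 genes, 7 were too low to be tested, among them Il6 with no count in WT and 5 and 1 counts in CBE-KO, Osm with 2 and 9 counts in WT against 2 and 0, and Cntf with 7 and 5 against 5 and 2. At this depth no difference in them could be read. The other 2, the cytokine genes Il11 and Ctf1, were tested and did not pass in edgeR, with log2 fold changes of -0.18 and 0.03.

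Receptors that share Il6st or belong to the same family passed in both directions. Of 6 genes, 5 were tested and 3 passed, 2 higher and 1 lower, beside the 43.1% of all tested genes, with a median log2 fold change of 0.08. Cntfr, the binding chain for ciliary neurotrophic factor, which signals through Lifr and Il6st, had 181 CPM in each WT library and 97.0 and 107 CPM in CBE-KO. The groups stood far apart, and the difference was -0.83 ± 0.05 in log2 units (standard error; adjusted p = 2.21e-09 by edgeR). Within a library the ratio of Cntfr to Il6st counts was 6.56 and 6.30 in WT and 2.43 and 2.61 in CBE-KO. Lepr, the leptin receptor, had 7 and 8 counts in the WT libraries and 38 and 27 in those of CBE-KO, a difference of 1.98 ± 0.42 in log2 units (standard error; adjusted p = 0.000891 by edgeR). Il27ra, which pairs with Il6st to bind interleukin-27, had 20 and 26 counts in the WT libraries and 55 and 63 in those of CBE-KO, a difference of 1.24 ± 0.29 in log2 units (standard error; adjusted p = 0.00218 by edgeR). Both rises were from low counts, and Il27ra overlaps in RefSeq with Palm3, which was lower by the same test (-0.59). Il6ra and Il11ra1 did not pass, with log2 fold changes of -0.10 and 0.08. The value of Il11ra1 is uncertain because it has a near-identical copy, Il11ra2, and Osmr had at most 1 count in any library.

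Among the other Jak and Stat genes, 6 of 8 passed, 4 higher and 2 lower, beside 43.1% of all tested genes (21.6% higher, 21.5% lower), with a median log2 fold change of 0.26. Stat5b, a transcription factor of the same family, had 9.50 and 10.5 CPM in WT and 18.2 and 16.9 CPM in CBE-KO, the largest rise in this list at 0.82 ± 0.13 in log2 units (standard error; adjusted p = 7.31e-05 by edgeR). Its near-identical neighbour Stat5a did not pass (-0.09), and how reads common to both were counted is uncertain. Stat2, which carries interferon signals, rose by a log2 fold change of 0.59. The kinases Tyk2 and Jak2 rose by 0.37 and 0.48, and Jak3, which serves cytokine receptors of lymphocytes, fell to a log2 fold change of -0.54. Stat6, which carries interleukin-4 signals, fell to -0.29. The call for Jak2 was lost in DESeq2 (adjusted p = 0.131), and without CBE-KO replicate 1 or 2 (edgeR adjusted p = 0.0581 and 0.0744).

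The inhibitors and phosphatases were divided in direction. Of 15 genes, all tested, 7 passed, 3 higher and 4 lower, a share of 46.7% beside the 43.1% of all genes, and the median log2 fold change was -0.0004. Ptpn1, a tyrosine phosphatase that acts on Jak kinases, had 108 and 112 CPM in WT and 61.8 and 62.9 CPM in CBE-KO, a difference of -0.82 ± 0.06 in log2 units (standard error; adjusted p = 4.59e-09 by edgeR). Socs2, a relative of Socs3 that restrains growth hormone signalling, had 26.9 and 29.3 CPM in WT and 15.3 and 17.1 CPM in CBE-KO, a difference of -0.79 ± 0.10 in log2 units (standard error; adjusted p = 8.82e-06 by edgeR). Socs4 fell to a log2 fold change of -0.37, while Socs5, Socs6 and Pias1 rose by 0.43, 0.31 and 0.26. DESeq2 did not call those 3 rises (adjusted p = 0.116, 0.0553 and 0.113). In edgeR the call for Socs5 was also lost without WT replicate 1 or CBE-KO replicate 2 (adjusted p = 0.0544 and 0.0895), and that for Pias1 without CBE-KO replicate 1 (adjusted p = 0.0620). Socs1, the other classical inhibitor of Jak kinases, had a log2 fold change of 0.37 and did not pass (edgeR adjusted p = 0.129).

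Other genes known as Stat3 targets in embryonic stem cells were mostly lower in CBE-KO. Of 10 genes, 9 were tested and 7 passed, 6 lower and 1 higher, beside 43.1% of all tested genes (21.5% lower, 21.6% higher), and the median log2 fold change was -0.49. The pluripotency markers moved the same way, with 5 of 8 lower and a median of -0.34, and their part in the targets' change was not tested. Several of these genes also belong to the pluripotency network and respond to signals other than LIF. Gbx2, a homeobox factor, had 28.8 and 29.3 CPM in WT and 9.84 and 10.0 CPM in CBE-KO, a difference of -1.55 ± 0.11 in log2 units (standard error; adjusted p = 5.79e-09 by edgeR). Myc, a transcription factor that drives growth, had 70.1 and 69.8 CPM in WT and 25.0 and 28.1 CPM in CBE-KO, a difference of -1.40 ± 0.08 in log2 units (standard error; adjusted p = 2.18e-10 by edgeR). For both genes the replicates were close together and the groups far apart. Junb, an AP-1 subunit, had 15.1 and 14.0 CPM in WT and 5.97 and 6.93 CPM in CBE-KO, a difference of -1.18 ± 0.15 in log2 units (standard error; adjusted p = 8.30e-06 by edgeR). Pim2, the third kinase of the Pim family, and the pluripotency factor Klf4 fell to log2 fold changes of -0.56 and -0.49. Pim1 and Pim2 passed as lower and Pim3 did not pass. Bcl3 had a log2 fold change of -0.30 that did not pass in DESeq2 (adjusted p = 0.130), with library totals alone (-0.20, edgeR adjusted p = 0.142), without WT replicate 2 (-0.18, edgeR adjusted p = 0.319) or without CBE-KO replicate 1 (edgeR adjusted p = 0.0691). The 1 target that passed as higher was Tfcp2l1, named after its value was seen, a transcription factor of the naive state, at 0.16 ± 0.06 in log2 units (standard error; adjusted p = 0.0272 by edgeR). It did not pass in DESeq2 (adjusted p = 0.0915), without WT replicate 1 (0.072, edgeR adjusted p = 0.318) or without CBE-KO replicate 1 (edgeR adjusted p = 0.136). Klf5 (-0.14, edgeR adjusted p = 0.0521) and Pramel7 (-0.11) did not pass, and Fos had 6 to 10 counts and was not tested.

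**Figure D3:**
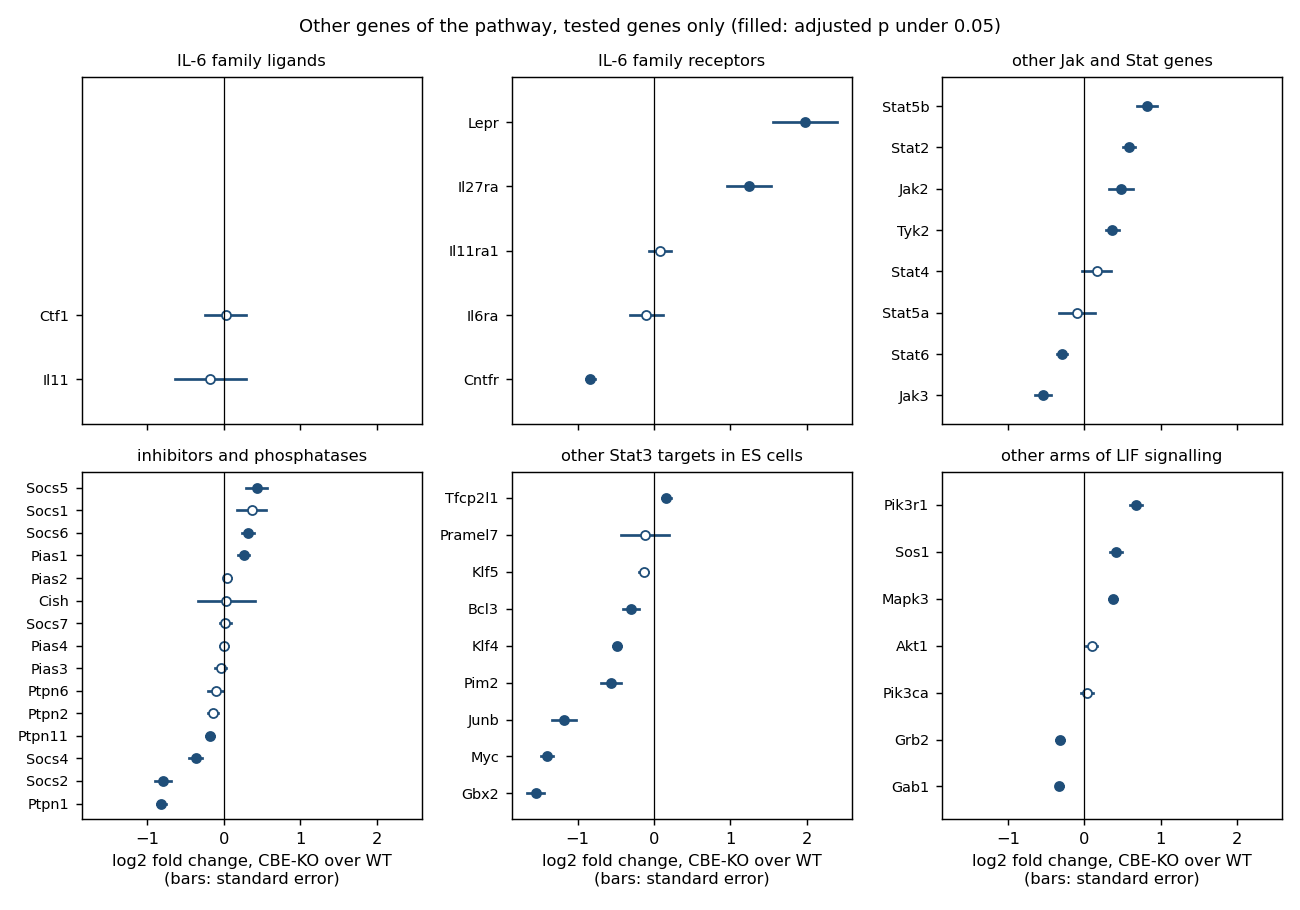
Log2 fold change of CBE-KO over WT for the 46 tested genes of the 6 other lists of the pathway. Bars are standard errors derived from edgeR's F statistic. Filled points passed at an adjusted p under 0.05. Most of the other Stat3 targets lie left of 0, most of the other Jak and Stat genes lie right of 0, and the remaining lists lie on both sides.

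Besides Stat3, the receptor feeds a branch to the MAP kinase ERK and one to phosphatidylinositol 3-kinase. Of 7 genes of these branches, all tested, 5 passed, 3 higher and 2 lower, beside 43.1% of all tested genes, with a median log2 fold change of 0.10. Pik3r1, the regulatory subunit of phosphatidylinositol 3-kinase, went from 32.9 ± 2.35 to 52.4 ± 2.28 CPM (±SD, n = 2 per group), a difference of 0.68 ± 0.08 in log2 units (standard error; adjusted p = 2.21e-06 by edgeR). Sos1, the exchange factor that loads Ras, and Mapk3 (ERK1) rose by 0.42 and 0.38. The adaptors Gab1 and Grb2 fell to log2 fold changes of -0.33 and -0.31, and Pik3ca and Akt1 did not pass (0.04 and 0.10). Over the 6 lists, 28 of 46 tested genes (60.9%) passed, 13 higher and 15 lower, beside the 43.1% of all tested genes. DESeq2 called 22, 8 higher and 14 lower, and with library totals alone edgeR called 29, 16 higher and 13 lower.

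Across the alternatives tried, Lifr, Il6st, Jak1, Stat3 and Pim1 kept their direction and passed each time that only an adjusted p was asked for. With library totals alone, the middle of the distribution over all genes lay at a log2 fold change of 0.11, and the values were 0.50 for Lifr, 0.62 for Il6st, 0.45 for Jak1, 0.50 for Stat3 and -0.19 for Pim1. With all 4 libraries none of the 8 reached an absolute log2 fold change of 1, a size that 8.64% of tested genes reached and passed.

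**Figure D4:**
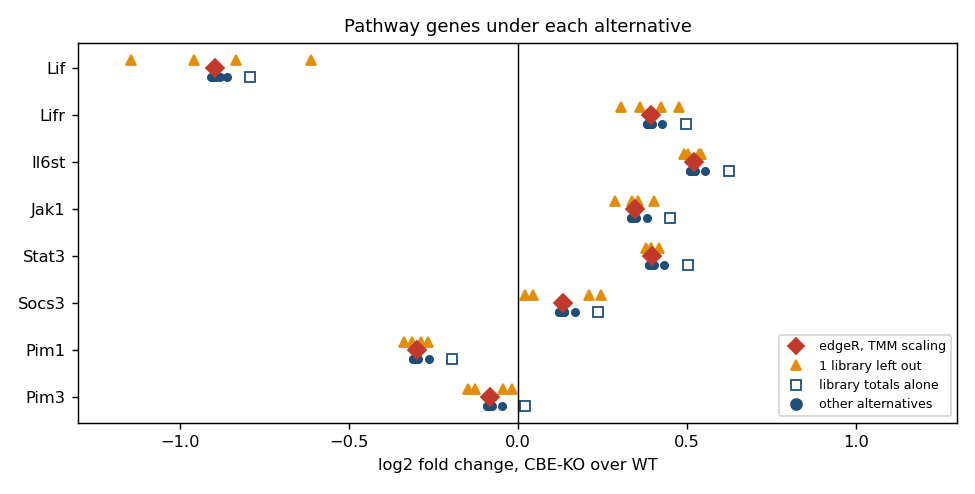
Log2 fold change of the 8 genes with edgeR and TMM scaling (diamonds), with 1 library left out (triangles), with library totals alone (open squares) and under the other alternatives (circles). Lif spreads from -1.14 to -0.61 as WT libraries are left out, Il6st stays between 0.49 and 0.62, and Pim3 turns from -0.08 to 0.022 with library totals alone.

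By root mean square difference of centred log2 CPM over the 4 libraries, the genes most like Lif, which had the largest change of the 8, were Gm43141 (0.0444), Amh (0.0535) and Gm40848, each with at most 24 counts in a library and none past the test (edgeR adjusted p = 0.0835, 0.0977 and 0.123).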

How the data were processed

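RNA from 4 libraries (WT and CBE-KO, 2 each) was analysed, and 6 Capture-C samples were not analysed here. The authors deposited raw read counts for each Ensembl gene, whole numbers without normalization as the values show. The submitters' processing notes name HISAT2 2.1.0, HTSeq 0.9.1, DESeq2 1.18.1, Bowtie2 2.3.1 and mm10 without roles, and the strand setting is not given in the sources used here. Groups came from sample titles. Symbols were matched for 52403 of 52636 identifiers, and promoter windows are RefSeq's for GRCm38.p6.

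Genes passing edgeR's filterByExpr (16005) were scaled by TMM and tested with glmQLFit and glmQLFTest (edgeR 4.0.16, R 4.3.3), two-sided, without covariates, at a Benjamini-Hochberg adjusted p under 0.05. Floors of 3 counts cover counting error only. The edgeR test gives no standard errors. They were derived as the absolute log2 fold change divided by the square root of the F statistic. The 95% confidence intervals used these errors with the t distribution at the test's total degrees of freedom. The members, lists and tests were chosen with earlier results of these data known. Named were all 8 members and, from each other list, the genes past the threshold, at most the 6 that changed most. Lists are described by counts and medians only, and 3 genes chosen for them are not reported here or counted. Alternatives were DESeq2 1.42.0 on the same genes, other scalings (median of ratios, upper quartile, library totals), no filter, a filter at an average of 1 CPM, a block for the replicate number, a threshold of 0.01, a minimum absolute log2 fold change of 1, and leaving out each library. On counts simulated for 16005 genes, 200 of them changed by a log2 fold change of 1, edgeR recovered 84.5%, and 9.14% of its calls were false. DESeq2 recovered 73.0%, with 5.19% of its calls false. In the data 43.1% of tested genes passed, and none of the 8 genes changed by that size. The simulated rates therefore do not describe the calls above.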

Additional observations from a re-analysis of the deposited data

How the results depend on the processing

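The number of genes that passed, 6895 in edgeR, was 4577 in DESeq2, 4917 at an adjusted p under 0.01, and 1383 (975 higher, 408 lower) with a minimum absolute log2 fold change of 1. With that minimum, 0 of the 8 pathway genes and 5 of the 28 other pathway genes remained in edgeR, since none of the 8 reached that size with all libraries, at any p, in edgeR or DESeq2. Of the genes that passed, 50.2% were higher with TMM and 66.9% with library totals alone. Leaving out 1 library, with the lone library of its group assumed to vary like the other group, gave 5492 to 6420 genes, 5 to 6 of the 8 and 24 to 28 of the other pathway genes. Pim3, which did not pass, had a log2 fold change of -0.08 that became 0.022 with library totals alone. The cause of these shifts was not tested. Of 420 values for 35 named genes under the alternatives other than the minimum log2 fold change, 397 stayed on the same side of the threshold with the same direction, 22 no longer passed and 1 changed direction.

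With a block for the replicate number, 7028 genes, 6 of the 8 and 28 of the other pathway genes passed. Libraries that share a number deviated from their groups with a correlation of 0.0346. With 2 libraries per group, both pairs give this same value by construction, so the pairs are not separate observations. The labels do not say that equal numbers mark a shared batch. Depth limits the scarce genes: Lif rested on 43 to 86 counts a library, and 9 of the 55 other pathway genes were too low to test.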
